A study of Drosophila melanogaster with 12 samples.

Results

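The genes described here are 10 genes that mark sex in the fly head or set it: the yolk protein genes Yp1, Yp2 and Yp3, the female-enriched fat body gene fit, the noncoding RNAs lncRNA:roX1 and lncRNA:roX2 (roX1 and roX2 below), and the regulators Sxl, tra, dsx and msl-2. They were taken by name from a table of 17730 genes, and all 10 were among the 12433 genes that were tested, which had 10 or more counts summed over the libraries. Expression was measured by total RNA-seq of ribodepleted RNA from heads of 1-day-old Drosophila melanogaster. Every fly carried the driver dTet-Gal4, which is active where the fly Tet gene is, and the groups were control (dTet-Gal4>w1118) and flies with UAS transgenes of mouse TET2 in the wild type form (mTET2-wt), with the N-terminal substitution R43G (mTET2-R43G) or with the catalytic domain substitution R1261C (mTET2-R1261C). Each group had 3 libraries labelled as biological replicates, and each library was a pool of male and female heads that the study set up in equal ratio. The transgenes share a landing site on chromosome 2.

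In Drosophila, females have 2 X chromosomes and males have 1, and the number of X chromosomes decides whether the RNA-binding protein Sex-lethal (Sxl) is made. In females Sxl directs the splicing of transformer (tra), Tra directs the splicing of doublesex (dsx), and Sxl blocks production of the protein Msl-2. In males Msl-2 is made and joins the dosage compensation complex, which carries the roX RNAs and raises transcription of the single X. Female Dsx turns on the yolk protein genes in fat body, a tissue that also lies in the head. In a mixed pool, yolk protein RNA therefore comes mainly from the female heads and roX RNA from the male heads. RNA of the female-enriched gene fit also comes mainly from the female heads, but the steps above do not account for it. The share of heads of a sex and the amount of RNA per head cannot be told apart in such pools.

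Libraries held from 15894383 to 19434046 counted read pairs, and ribosomal RNA genes took from 2.19% to 7.31% of them. Summed levels of 4 neuronal markers (2188 to 2927 CPM, the counts of a gene relative to the library total after TMM scaling), 3 photoreceptor markers (13491 to 18668 CPM) and 3 glial markers (112 to 128 CPM) fitted the label of the tissue, although the astrocyte marker alrm was at 0 counts in all 12 libraries. Gonad markers were close to absent, with 0.301 to 1.5 CPM summed over the ovary list and 0.779 to 2.07 CPM over the testis and accessory gland list.

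Between replicate pools of a group, the highest level of a yolk protein gene, fit or a roX RNA was from 1.2 times (roX2 in mTET2-R1261C) to 7.02 times (fit in control) the lowest, and that of a regulator from 1.05 to 1.44 times. None of the 10 genes passed the test in any comparison, which asked for an adjusted p no higher than 0.05 and a change of 1 or more on the log2 scale in either direction (quasi-likelihood test of edgeR, Benjamini-Hochberg adjustment). The nearest was fit, which was lower in every mTET2-R43G library than in any control library. DESeq2, the tool of the study, called fit in mTET2-R43G at the same thresholds (adjusted p = 0.00561, where 2.12% of all genes were called). In each group the pool with the most roX1 RNA had the least yolk protein and fit RNA, although the correlation of roX1 with Yp1 over all 12 libraries did not pass its test.

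**Figure D1:**
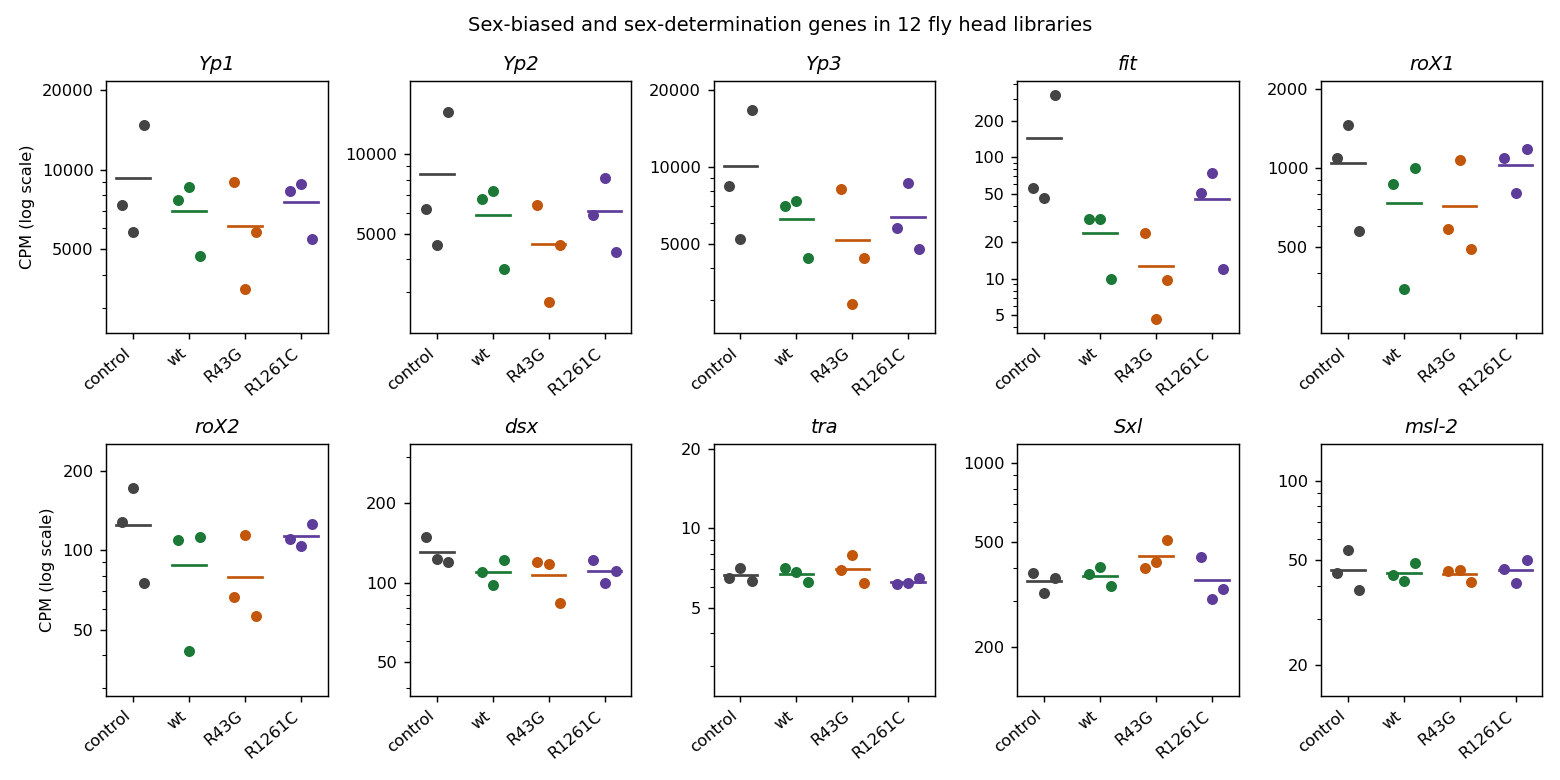
Level of each of the 10 genes in the 12 libraries (CPM with TMM scaling, log axis; points are libraries in order of replicate number, lines are group means, n = 3). Over all libraries the yolk protein genes, fit and the roX RNAs range from 4.14-fold to 69.7-fold and dsx, tra, Sxl and msl-2 from 1.28-fold to 1.78-fold; within mTET2-R1261C the roX RNAs lie close together (1.2-fold for roX2).

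The 3 yolk protein genes are all on the X chromosome. Yp1 (FBgn0004045; X, 10053811 to 10055498 in dm6, plus strand) and Yp2 (FBgn0005391; X, 10050951 to 10052636, minus strand) are neighbours in opposite orientation, and Yp3 (FBgn0004047; X, 13759546 to 13761547, plus strand) lies apart. They were among the most abundant RNAs of the head, with ranks of 4 to 20 (Yp1), 5 to 33 (Yp2) and 3 to 26 (Yp3) among all genes of a library, and together they took from 0.916% to 4.47% of all counts. Yp1 was at 7364, 5833 and 14775 CPM in control replicates 1, 2 and 3. It was at 7676, 8573 and 4719 CPM in mTET2-wt, at 8997, 3541 and 5791 CPM in mTET2-R43G, and at 8312, 8813 and 5470 CPM in mTET2-R1261C. Control replicate 3 was the highest library of all, mTET2-R43G replicate 2 was the lowest, and the 4 groups overlapped.

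Yp2 and Yp3 had the same extremes. Yp2 reached 14522 CPM in control replicate 3 and fell to 2753 CPM in mTET2-R43G replicate 2, and Yp3 went from 16658 CPM to 2909 CPM in the same libraries. The ratio of Yp1 to Yp2 counts stayed between 1.02 and 1.42, and that of Yp1 to Yp3 between 0.875 and 1.45. The yolk protein genes thus moved together from pool to pool.

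Relative to control, Yp1 had a log2 fold change of −0.42 ± 0.40 (SE, n = 3 per group) in mTET2-wt heads, −0.61 ± 0.40 in those of mTET2-R43G and −0.31 ± 0.40 in those of mTET2-R1261C. In the same order Yp2 had −0.51, −0.88 and −0.47 and Yp3 −0.69, −0.96 and −0.66, and the smallest adjusted p of the 9 tests was 0.224 (Yp3 in mTET2-R43G, edgeR). These differences are within the spread of replicates, and the 95% interval of the largest, −1.94 to 0.02 for Yp3 in mTET2-R43G, leaves room for a fall of more than 2-fold. Control replicate 3 had a large part in them. Without it the log2 fold changes in mTET2-wt were 0.08 for Yp1, 0.13 for Yp2 and −0.13 for Yp3, and those in mTET2-R43G were −0.11, −0.23 and −0.40.

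fit (FBgn0038914; 3R, 21883924 to 21884454, minus strand), named for its female-specific expression independent of tra, encodes a small secreted protein of the fat body. It was at 55.7, 46.4 and 326 CPM in control replicates 1, 2 and 3, and at 31.2, 30.8 and 9.90 CPM in mTET2-wt. It was at 23.8, 4.67 and 9.72 CPM in mTET2-R43G and at 51.2, 73.6 and 12.1 CPM in mTET2-R1261C. The range over the 12 libraries was 69.7-fold, the widest of the 10 genes. All libraries of mTET2-wt and of mTET2-R43G were below all control libraries, and those of mTET2-R1261C overlapped control.

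In mTET2-R43G the mean was 11.2-fold lower than in control (log2 fold change −3.49 ± 0.92, 95% interval −5.51 to −1.46, unadjusted p = 0.00283, adjusted p = 0.0567, edgeR), and so fit missed the threshold. In mTET2-wt it was 5.95-fold lower (log2 fold change −2.57 ± 0.88, adjusted p = 0.180), and in mTET2-R1261C 3.13-fold lower (−1.65 ± 0.85, adjusted p = 0.491). DESeq2 called fit in mTET2-R43G (log2 fold change −3.47, adjusted p = 0.00561), as did edgeR with no filter on low counts (adjusted p = 0.0488, where 1.17% of all genes were called), and over all alternatives its adjusted p ran from 0.00561 to 0.217. Without control replicate 3 the log2 fold change was −2.01 in mTET2-R43G (adjusted p = 0.217), −1.09 in mTET2-wt and −0.16 in mTET2-R1261C.

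Fat body markers also varied between libraries. Lsp2, a larval serum protein of the fat body, was at 94.2, 6.18 and 527 CPM in control replicates 1, 2 and 3 and at 26.3 to 34.1 CPM in mTET2-R43G. It was the only 1 of the 6 larval fat body genes with a negative log2 fold change in mTET2-R43G relative to control (−2.79 ± 1.16, adjusted p = 0.176, edgeR). The other 5 had positive values, from 0.99 (Lsp1gamma) to 2.51 (Lsp1alpha, adjusted p = 0.0967), and the median of the list was 1.38, beside −0.01 for all genes. The list went the same way in mTET2-wt (median 0.80) and mTET2-R1261C (1.22), with 5 positive values each and Lsp2 negative (−2.08 and −1.56). These comparisons share the control libraries. The list summed to 80.9 to 610 CPM in control, 145 to 229 in mTET2-wt, 97.7 to 283 in mTET2-R43G and 61.8 to 355 in mTET2-R1261C. The adult fat body list (4 genes, with the lipophorin gene apolpp) summed to 18162 to 29134, 25845 to 27247, 15194 to 24296 and 19730 to 37299 CPM in the same order. In no comparison was a gene of either list called, where 0.0724% to 1.34% of all genes were. The part of fat body content in the levels of fit was not tested. Of the gene model of fit, 33.5% overlaps asRNA:CR45046 on the same strand, and read pairs in that stretch were not counted.

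The roX RNAs are X-linked noncoding RNAs of the dosage compensation complex. roX1 (FBgn0019661; X, 3857230 to 3862697, minus strand) was at 1089, 1459 and 577 CPM in control, at 870, 347 and 998 CPM in mTET2-wt, at 587, 1069 and 492 CPM in mTET2-R43G and at 1090, 804 and 1184 CPM in mTET2-R1261C. roX2 (FBgn0019660; X, 11579065 to 11580432, plus strand) was at 128, 172 and 75.1 CPM in control, at 109, 41.5 and 112 CPM in mTET2-wt, at 66.5, 114 and 56.2 CPM in mTET2-R43G and at 111, 104 and 125 CPM in mTET2-R1261C. Control replicate 2 was highest and mTET2-wt replicate 2 lowest for both, and the groups overlapped. Among 1909 long noncoding RNA genes, roX1 ranked from 3 to 5 and roX2 from 9 to 16 in each library.

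Although each roX RNA varied about 4-fold (4.2-fold for roX1, 4.14-fold for roX2), the ratio of their counts only ran from 7.69 to 9.85, with a median of 8.63. Relative to control, roX1 had log2 fold changes of −0.50 ± 0.42 in mTET2-wt (adjusted p = 0.647), −0.54 ± 0.42 in mTET2-R43G (adjusted p = 0.470) and −0.02 ± 0.42 in mTET2-R1261C (adjusted p = 0.997, edgeR). For roX2 they were −0.51, −0.66 and −0.14, with adjusted p-values of 0.598, 0.327 and 0.951. The 95% interval for roX1 in mTET2-R1261C was −0.93 to 0.89, which leaves room for a change of nearly 2-fold in either direction. The interval is not a limit of detection, and a change under 2-fold could not be called under the fold minimum.

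**Figure D2:**
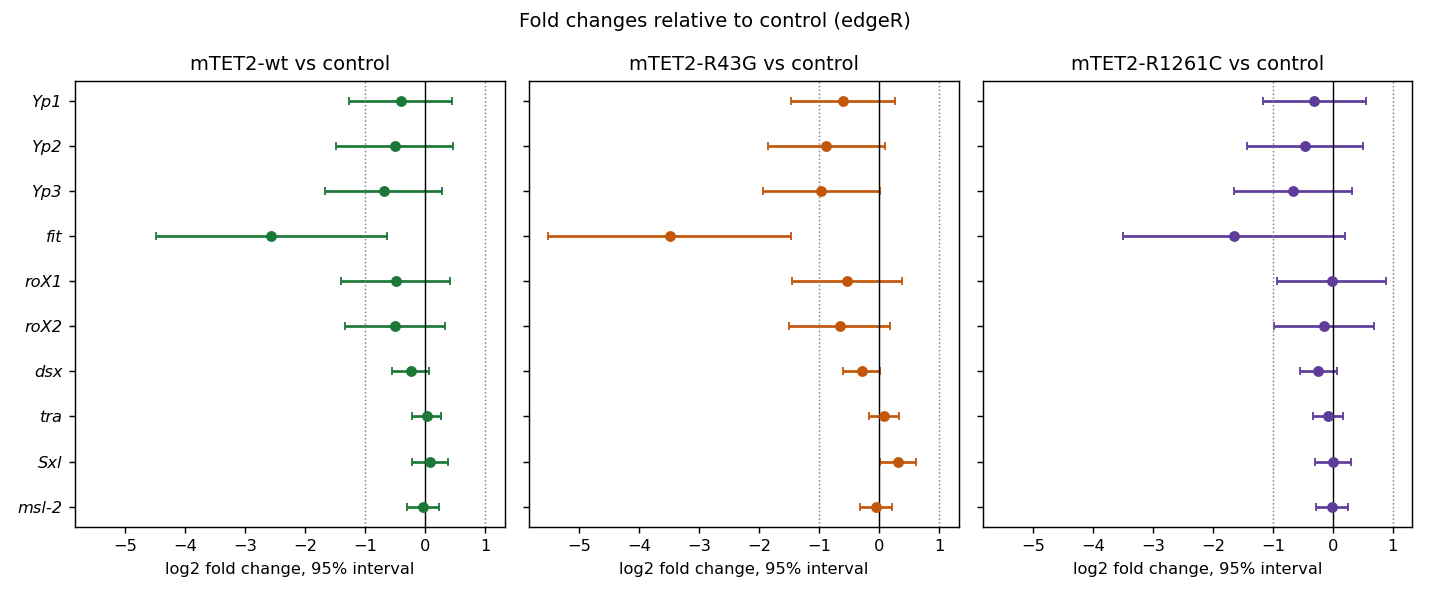
log2 fold changes of the 10 genes in each mTET2 group relative to control from the edgeR fit, with 95% intervals (n = 3 libraries per group; the dotted lines mark a log2 fold change of 1 in each direction). Intervals are widest for fit (−5.51 to −1.46 in mTET2-R43G) and narrow for the regulators dsx, tra, Sxl and msl-2.

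The regulators ranged less over the 12 libraries, from 1.28-fold (tra) to 1.78-fold (dsx). Sxl (FBgn0264270; X, 7074550 to 7098053, minus strand), the switch gene of the pathway, was at 383, 323 and 366 CPM in control, at 380, 403 and 342 CPM in mTET2-wt, 399, 421 and 511 CPM in mTET2-R43G and 439, 304 and 333 CPM in mTET2-R1261C. All mTET2-R43G libraries were above all control libraries, and mTET2-R1261C spanned both. The log2 fold change in mTET2-R43G was 0.31 ± 0.14 (1.24-fold, unadjusted p = 0.0422, adjusted p = 0.199, edgeR). In mTET2-wt it was 0.07 (95% interval −0.23 to 0.37) and in mTET2-R1261C 0.01 (−0.29 to 0.31).

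dsx (FBgn0000504; 3R, 7924323 to 7967408, minus strand) encodes the transcription factor at the end of the pathway. Its level was 149, 123 and 120 CPM in control and 120, 117 and 84.1 CPM in mTET2-R43G. In mTET2-wt it was at 110, 98.3 and 122 CPM and in mTET2-R1261C at 122, 99.5 and 110 CPM. The highest mTET2-R43G library lay just under the lowest control library (119.6 against 119.8 CPM), and the other mTET2 groups overlapped control. Against control the log2 fold change of dsx was −0.25 in the mTET2-wt heads, −0.29 in the mTET2-R43G heads and −0.24 in the mTET2-R1261C heads, with adjusted p-values of 0.459, 0.247 and 0.565 (edgeR).

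tra (FBgn0003741; 3L, 16590059 to 16591050, minus strand), the splicing regulator between Sxl and dsx, ran only from 6.16 to 7.90 CPM over the 12 libraries. msl-2 (FBgn0005616; 2L, 3462218 to 3466112, minus strand), which encodes the male-limiting subunit of the dosage compensation complex, ran from 38.7 to 54.9 CPM. Against control, log2 fold changes lay between −0.08 and 0.08 for tra and between −0.06 and −0.01 for msl-2. Sxl, tra, dsx and msl-2 are spliced differently in males and females, and their counts cover whole gene bodies and do not tell the sex-specific transcripts apart. Exons make up 39.1% of the Sxl and 21.3% of the dsx gene body, so that reads from introns also entered those counts.

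Across the 10 genes, 0 were called relative to control in any mTET2 group. Of all genes tested, mTET2-wt had 1.2% called, mTET2-R43G 1.34% and mTET2-R1261C 0.748%. At an unadjusted p under 0.05 there was 1 of the 10 in mTET2-wt (fit), 2 in mTET2-R43G (fit and Sxl) and 0 in mTET2-R1261C, against 14.7%, 23.0% and 11.8% of all genes. DESeq2 called 0, 1 (fit) and 0, against 2.03%, 2.12% and 1.35%. Groups did not overlap for 1 gene in mTET2-wt (fit), for 3 in mTET2-R43G (fit, dsx and Sxl) and for 0 in mTET2-R1261C, with 23.3%, 26.6% and 15.3% of all genes. These shares of the 10 genes are not set apart from the background. The median log2 fold changes of the 10 genes were −0.46, −0.58 and −0.19, beside −0.00, −0.01 and −0.01 for all genes, and the 3 comparisons share the control libraries.

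Between the mTET2 groups the question was whether either substitution shifted these genes from their level in mTET2-wt. Again 0 of the 10 genes were called by edgeR or DESeq2, with no adjusted p from DESeq2 for tra in mTET2-R1261C against mTET2-R43G. Of all genes, edgeR called 0.0804% and DESeq2 0.266% in mTET2-R43G against mTET2-wt, 0.145% and 0.413% in mTET2-R1261C against mTET2-wt, and 0.0724% and 0.0368% in mTET2-R1261C against mTET2-R43G. At an unadjusted p under 0.05 the numbers were 0, 0 and 1, against 9.86%, 6.63% and 13% of all genes. No gene of the 10 had groups that did not overlap, where 20.3%, 11.5% and 13.2% of all genes had. The gene with a p under 0.05 was Sxl, lower in mTET2-R1261C than in mTET2-R43G with a log2 fold change of −0.31 ± 0.14 (adjusted p = 0.376). fit was 3.58-fold higher in mTET2-R1261C than in mTET2-R43G (log2 fold change 1.84 ± 0.88, adjusted p = 0.394), with overlapping libraries.

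The spread between replicates was larger for fit than for the other 9 genes. The SD of log2 CPM within groups was 1.28 for fit, 0.64 for Yp2 and Yp3, 0.63 for roX1, 0.58 for roX2 and 0.57 for Yp1, where the median of 9511 genes with a mean of at least 1 CPM was 0.144. For these 6 genes, between 95.7% and 98.8% of the genes had a smaller SD. Among genes within 2-fold of their own level the share was 99.2% for fit, 99.1% for roX1 and 98.5% for roX2. For the yolk protein genes, few genes are as abundant, and the share was 60.0% for Yp1 (of 15 genes), 86.4% for Yp2 (of 22) and 75.0% for Yp3 (of 16). The SD of the regulators was 0.198 for dsx, 0.188 for Sxl, 0.162 for msl-2 and 0.105 for tra, and 68.8%, 66.2%, 57.9% and 28.3% of all these genes had a smaller one. Among genes within 2-fold of their level the share was 87.2% for Sxl, 86.5% for dsx, 73.0% for msl-2 and 6.0% for tra. At matched level, fit and the roX RNAs thus ranked above all regulators. The yolk protein genes had at most 22 genes to compare with, too few to rank them against Sxl and dsx.

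**Figure D3:**
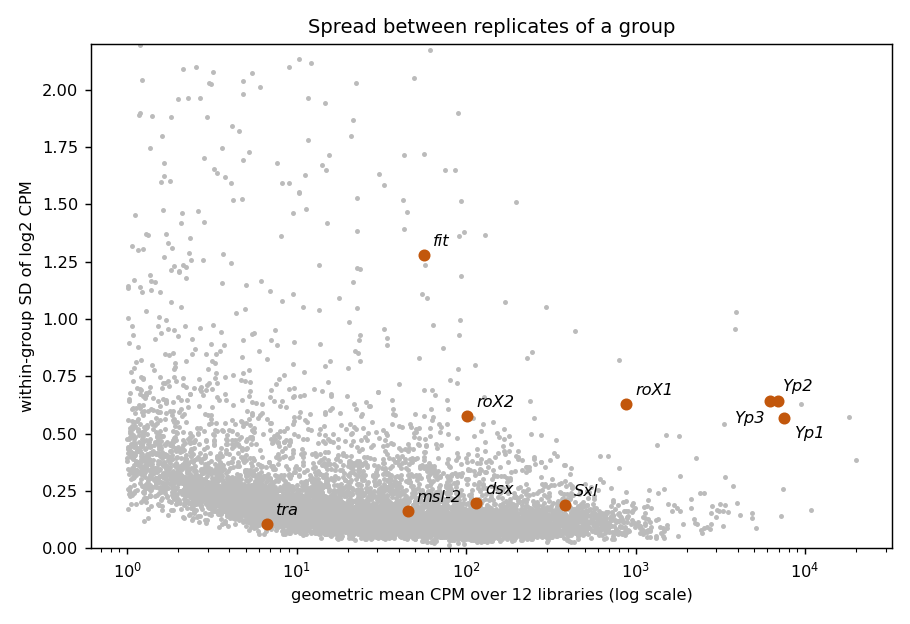
Within-group SD of log2 CPM against the geometric mean CPM over the 12 libraries (log axis) for 9511 genes (grey) and the 10 genes described (orange); 18 genes lie above the plotted range. fit (1.28) and the roX RNAs (0.63 and 0.58) sit above most genes of their level, and tra (0.105) sits low.

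Over the 12 libraries, roX1 and roX2 rose and fell together (Pearson r = 0.984, adjusted p = 3e-05, Spearman rho = 0.937, adjusted p = 9e-05; two-sided permutation tests with 100000 resamples, where 1e-05 is the smallest unadjusted p, adjusted over 3 relations). Yp1 and fit did so too (r = 0.893, adjusted p = 0.00025; rho = 0.727, adjusted p = 0.014). Without the 2 libraries farthest from the median of the first gene, r was 0.960 for roX1 with roX2 and 0.693 for Yp1 with fit (adjusted p = 0.032), and rho of the latter was 0.527 (adjusted p = 0.12), so that the relation of Yp1 with fit rests in part on control replicate 3 and mTET2-R43G replicate 2. Centred on the group means, Yp1 with fit had an r of 0.96 and a rho of 0.93 (adjusted p = 0.0023 for each, exact test over all 1296 permutations within groups).

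The correlation of roX1 with Yp1 over the 12 libraries had an r of −0.471 and did not pass (adjusted p = 0.12; rho = −0.483, adjusted p = 0.11). Centred on the group means, r was −0.794 (adjusted p = 0.012; rho = −0.832, adjusted p = 0.013; exact test over all 1296 permutations within groups). Without mTET2-wt replicate 2 and mTET2-R43G replicate 3, the 2 libraries farthest from the median of roX1, r was −0.693 (adjusted p = 0.032), while rho was −0.636 (adjusted p = 0.081). The relation was therefore seen between replicate pools of a group and did not pass over all 12 libraries at once.

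**Figure D4:**
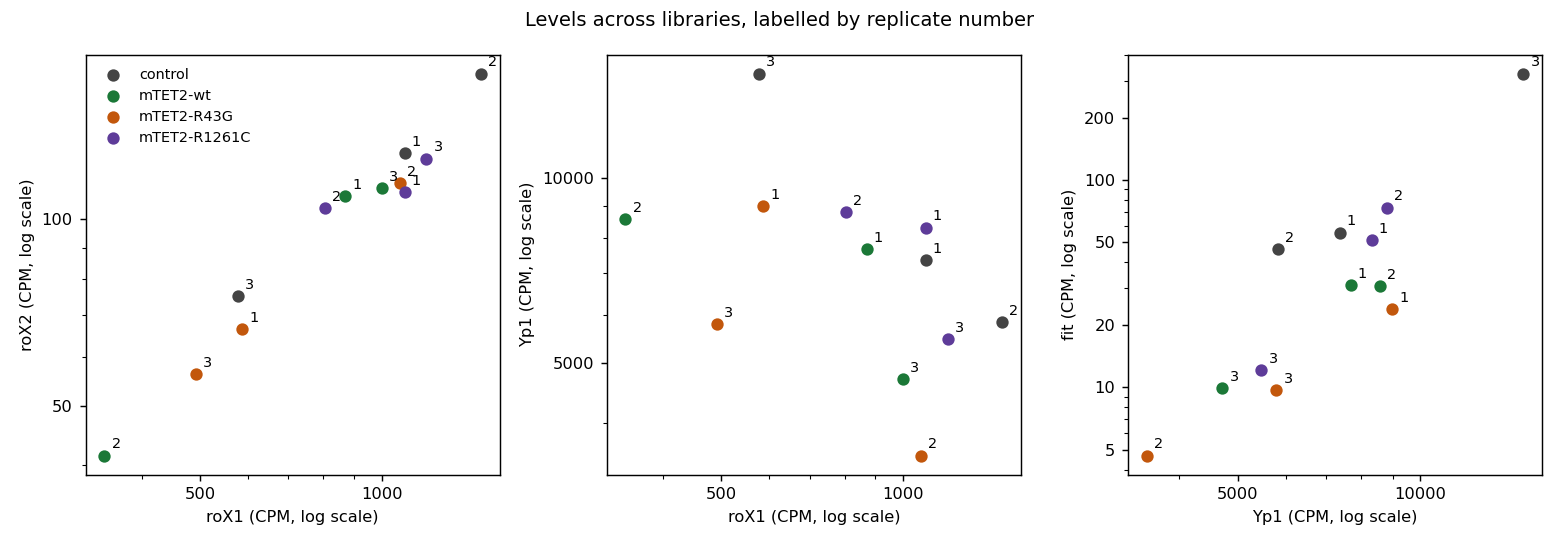
Levels in the 12 libraries (CPM with TMM scaling, log axes) of roX2 against roX1 (left), Yp1 against roX1 (middle) and fit against Yp1 (right), coloured by group and labelled by replicate number. The roX RNAs lie along a line (r = 0.984), Yp1 against roX1 slopes downwards within groups (r = −0.471 over all libraries) and fit rises with Yp1 (r = 0.893).

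In all 4 groups the replicates had the same order for roX2 as for roX1, and in all 4 the replicate with the most roX1 had the least Yp1, Yp2, Yp3 and fit. The order of Yp1, Yp2 and Yp3 was the exact reverse of that of roX1 in 3 of the 4 groups, all but mTET2-R43G, and that of fit in 2. In control, replicate 2 was 0.59 above the group mean of log2 CPM for roX1 and 0.56 below it for Yp1, and replicate 3 was 0.75 below it for roX1 and 0.78 above it for Yp1. Not every library deviated in opposite directions: mTET2-wt replicate 1 was above its group mean for roX1 (0.38) and also for Yp1 (0.18), Yp2 (0.26), Yp3 (0.20) and fit (0.55), and mTET2-R1261C replicate 1 was above it for roX1 (0.11), Yp1 (0.17) and fit (0.52). Equal shares of male and female heads were planned for each pool. The share of each sex in a pool was not measured apart from these RNAs, and the part of pool composition in the comparisons of groups was not tested.

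**Figure D5:**
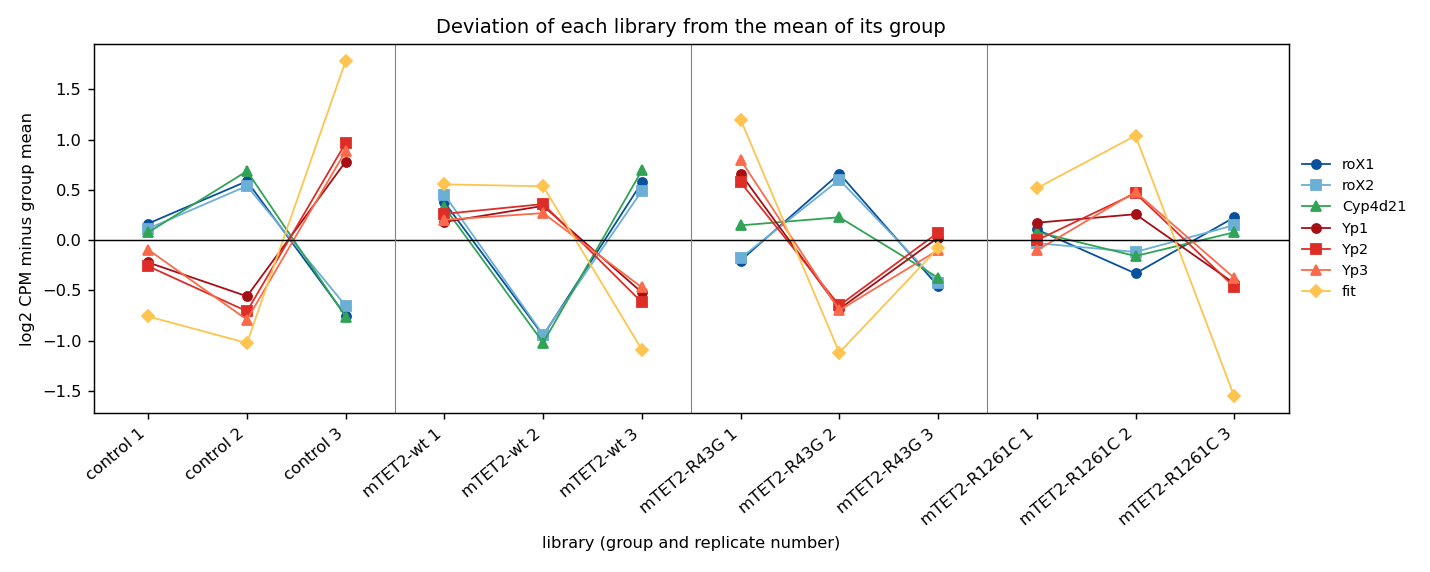
Deviation of each library from the mean of its group (log2 CPM) for roX1, roX2 and the male-enriched gene Cyp4d21 (blue and green) and for Yp1, Yp2, Yp3 and fit (red and yellow); lines join the replicates of a group and have no order. In each group the library highest for roX1 is the lowest for the yolk protein genes and fit.

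A fit with the level of roX1 as a covariate, chosen after seeing the data, called 3 of the 9 other genes in mTET2-R43G relative to control, where it called 1.46% of all genes. They were fit (log2 fold change −3.91, adjusted p = 0.0152), Yp2 (−1.21, adjusted p = 0.0411) and Yp3 (−1.29, adjusted p = 0.0478, edgeR). The level of roX1 is itself an outcome of these libraries, so these values are a description of the genes at equal roX1.

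Male-enriched head genes were described from a list of 4: Cyp4d21 and sxe2, which are expressed in male head fat body under control of the sex pathway, the odorant-binding protein gene Obp99b and takeout (to). Cyp4d21 was at 91.1, 139 and 50.8 CPM in control, at 58.0, 22.7 and 74.8 CPM in mTET2-wt, 40.03, 42.3 and 27.9 CPM in mTET2-R43G and 68.7, 58.1 and 68.5 CPM in mTET2-R1261C. Its replicates had the order of roX1 in 3 of the 4 groups. Of 9501 genes with a mean of at least 1 CPM outside the 10, Cyp4d21 had the 3rd highest correlation with roX1 (r = 0.885 over 12 libraries, a description), and sxe2 came at rank 64 (r = 0.729), whereas Obp99b (r = 0.207) and to (r = −0.259) did not follow roX1.

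None of the 4 male-enriched genes was called by edgeR in any comparison, where 0.0724% to 1.34% of all genes were. Cyp4d21 was lower in all mTET2-R43G libraries than in any control library, with a log2 fold change of −1.35 ± 0.40 (adjusted p = 0.0797, edgeR), and sxe2 had −0.85 ± 0.29 (adjusted p = 0.105). In mTET2-wt the values were −0.85 (adjusted p = 0.354) and −0.87 (adjusted p = 0.165). Obp99b had the most negative value of the list there: it was at 15.6, 9.58 and 10.4 CPM in control and at 2.67, 2.97 and 5.03 CPM in mTET2-wt, without overlap, with a log2 fold change of −1.73 ± 0.62 (unadjusted p = 0.0171, adjusted p = 0.208). Its log2 fold change in mTET2-R1261C against mTET2-wt was 2.25 ± 0.62 (unadjusted p = 0.00374, adjusted p = 0.378), with 31.3, 15.6 and 4.44 CPM in mTET2-R1261C, which overlapped. Among the 8 genes of the female-enriched and male-enriched lists, the most negative fold changes in mTET2-R43G were those of a female-enriched and of a male-enriched gene, fit and Cyp4d21, and neither passed the test.

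The other genes nearest in pattern to roX1 over the 12 libraries were CG10435 (r = 0.901), Nca (0.891), Grip84 (0.878) and mldr (0.864), and those most opposed were CG1835 (−0.867), topi (−0.827), CG30154 (−0.782), CG3823 (−0.770) and Ndg (−0.760). For Yp1 the nearest were SpdS, a spermidine synthase (0.933), the translation factor gene eEF1gamma (0.919), the ribosomal protein genes RpS16 (0.914) and RpL35A (0.897) and CG3760 (0.898). Most opposed to Yp1 were CG5890 (−0.887), wry (−0.886), l(1)G0469 (−0.880), Hs3st-A (−0.870) and Mnn1 (−0.868). For fit they were Est-6, a carboxylesterase (0.943; 160 to 816 CPM), CG3760 (0.940), Gapdh2 (0.938), CG43051 (0.937) and COX7C (0.934), against Hmx (−0.965), lbk (−0.954), Spn (−0.951), RasGAP1 (−0.943) and Kdm5 (−0.937). These are the extremes of 9501 correlations over 12 libraries and carry no test.

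In the rest of the pathway 0 genes were called in any comparison. This held for 7 sex determination genes, 8 cofactors of Sxl splicing, 5 detected genes that count X chromosomes and 8 dosage compensation genes. The 10 genes are included where they belong. Of all genes, 0.0724% to 1.34% were called per comparison, so lists this short with 0 calls are not set apart from the background. fruitless (fru), a target of Tra that shapes male courtship circuits, had an adjusted p under 0.05 but stayed under the fold minimum. It was at 378, 329 and 335 CPM in control and at 476, 533 and 513 CPM in mTET2-R43G, with all mTET2-R43G libraries above all control libraries. The log2 fold change was 0.55 ± 0.10 (adjusted p = 0.0128, edgeR), and 4.33% of all genes had an adjusted p of at most 0.05 in this comparison. The counts of fru cover the whole gene body, introns included, and do not tell its transcripts apart. In mTET2-wt fru had 0.24 ± 0.10 (adjusted p = 0.266) and in mTET2-R1261C 0.09 ± 0.10 (adjusted p = 0.826).

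The protein subunits of the dosage compensation complex did not share the spread of its RNAs. msl-1 ran from 42.8 to 56.2 CPM and the helicase gene mle, whose product acts on the roX RNAs, from 74.1 to 99.8 CPM. The log2 fold changes of msl-1, msl-3, mof, mle and Clamp relative to control lay between −0.22 (mof in mTET2-wt) and 0.14 (msl-3 in mTET2-R43G), and the smallest adjusted p among them was 0.344. By median fold change the X was level with the autosomes: the median log2 fold change of 1986 X-linked genes relative to control was 0.01 (mTET2-wt), 0.02 (mTET2-R43G) and 0.00 (mTET2-R1261C), beside −0.01, −0.02 and −0.01 for 10325 genes of the large autosomes. Of the X-linked genes 0.856%, 1.41% and 0.554% were called, and of the autosomal genes 1.27%, 1.34% and 0.785%. Single libraries differed in their X share. With the 10 genes left out, X-linked genes took from 15.8% (mTET2-R1261C replicate 2) to 20.8% (mTET2-R43G replicate 3) of counts.

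Genes on the Y chromosome, which males alone carry, gave little signal in heads. The 11 listed genes summed to 4.74 to 8.49 CPM, and Pp1-Y1 and Pp1-Y2 were at 0 counts in all libraries. Of the 7 tested, 0 were called, where 0.0724% to 1.34% of all genes were called per comparison. The sum ran from 4.74 to 6.64 CPM in mTET2-wt and from 6.73 to 8.49 CPM in mTET2-R43G, which did not overlap, and control (5.88 to 8.24 CPM) and mTET2-R1261C (5.07 to 7.67 CPM) overlapped both. In mTET2-R43G against mTET2-wt, 20.3% of all genes did not overlap, and 0 of the 7 tested Y-linked genes had an unadjusted p under 0.05 (edgeR).

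Per length, measured as median CPM per kilobase of gene body, the order of the 10 genes was Yp1 (4460), Yp2 (3580), Yp3 (3180), roX1 (171), roX2 (80.3), fit (58.4), Sxl (16.2), msl-2 (11.6), tra (6.55) and dsx (2.75). Of the 9 pairs of neighbours in this order, 5 kept it in all 12 libraries. The exceptions were Yp2, which was above Yp3 in 9 of 12, roX2, which was above fit in 7, fit, which was above Sxl in 10, and Sxl, which was above msl-2 in 11. For dsx and Sxl, long introns lower a value taken per gene body.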

How the data were processed

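Total RNA from 1-day-old heads was ribodepleted and sequenced as stranded paired-end libraries, 3 per group. Per the methods and the submitters' processing notes, the authors aligned reads with HISAT2 2.1.0 to the FlyBase genome (dm6) and deposited raw counts of read pairs per gene from featureCounts (the notes give version 2.0.1, and the header of the table names another). Pairs on the reverse strand were counted over the entire gene, introns included, and pairs that overlapped several genes were dropped. Symbols came from reference name tables for 17633 of 17730 genes.

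Fits used edgeR 4.0.16 and, for an alternative, DESeq2 1.42.0 (R 4.3.3). Tables, correlations and plots used Python 3.11.15 with numpy 2.4.6, pandas 2.3.3, scipy 1.17.1 and matplotlib 3.10.9. A filter removed genes whose counts summed to less than 10. Counts were scaled with TMM (factors 0.959 to 1.05), and the quasi-likelihood model of edgeR took all 12 libraries, 12433 genes and 1 mean for each group. P-values were adjusted by Benjamini-Hochberg in each comparison, and a called gene had an adjusted p no higher than 0.05 and a log2 fold change of 1 or more in size, the thresholds of the study. The study applied these thresholds to DESeq2 results, so the main fit here is not its method. The scripts were tested on simulated data. Correlations used log2 CPM with a prior count of 2. In the fits, a p-value sets a difference between groups against the spread between libraries within groups, estimated over all 4 groups. The main correlation tests permuted all 12 libraries without regard to group.

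The 10 genes and all lists (83 genes in 14 lists, of which 81 matched a symbol and 67 passed the filter) were chosen with earlier results of these data known. Named genes are the 10, list genes (up to 4 examples a list, those with the smallest adjusted p) and the 5 genes most and least correlated with roX1, Yp1 and fit. Library values of Lsp2, Obp99b, msl-1 and mle are given outside that rule.

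Groups share replicate numbers, and the labels name no shared batch. Same-numbered libraries deviated together only in mTET2-R43G and mTET2-wt (correlations 0.151 to 0.291 for the 3 pairs). In the other comparisons the correlations went down to −0.382. The main fit had no replicate block, so all its values are unpaired, those of mTET2-R43G against mTET2-wt included. A block was used only as an alternative. Alternatives were DESeq2, other scaling and filters, a replicate block, a fit of only the libraries compared, no minimum fold change, leaving out each library, and, chosen after seeing the data, roX1 as a covariate and the correlations without each library.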

Additional observations from a re-analysis of the deposited data

How the results depend on the processing

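Of 258 alternative values of fold changes of single genes, 251 kept their direction and their side of the threshold. Yp1 (0.0829) and Yp2 (0.134) changed sign in mTET2-wt relative to control without control replicate 3 (adjusted p = 0.961 and 0.933), and over all fits that left out 1 library they ran from −0.6633 to 0.0829 and from −0.8138 to 0.134. Among the 10 genes, the number called in mTET2-R43G relative to control was 1 with DESeq2 and 1 with no filter on low counts, against 2.12% and 1.17% of all genes. With roX1 as a covariate it was 3 of the genes other than roX1, against 1.46% of all genes. In all other comparisons and alternatives, and without any 1 library, it was 0. The correlation of roX1 with Yp1 was −0.794 with values centred on group means and −0.693 without the 2 libraries farthest from the median of roX1; leaving out each library gave −0.584 to −0.412, and 0.972 to 0.987 for roX1 with roX2 and 0.815 to 0.932 for Yp1 with fit. The causes were not tested.

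Over all genes, 149 (mTET2-wt), 167 (mTET2-R43G) and 93 (mTET2-R1261C) were called relative to control, and with no minimum fold change 279, 538 and 185. DESeq2 gave 226 in mTET2-wt and 157 in mTET2-R1261C. In mTET2-R43G relative to mTET2-wt 10 calls became 18 with no minimum fold change, 29 with DESeq2 and 5 in a fit of the 6 libraries compared. In mTET2-R1261C relative to mTET2-wt, 18 became 44 with DESeq2, and relative to mTET2-R43G, 9 became 2 with DESeq2 and 4 in a fit of the 6 libraries. A fit of the 6 libraries gave 85 in mTET2-R43G relative to control. Leaving out each library gave 70 to 115, 81 to 153 and 55 to 112 relative to control, 3 to 8 and 7 to 15 relative to mTET2-wt, and 3 to 10 for mTET2-R1261C relative to mTET2-R43G, with fewer libraries in each fit. The lowest counts came without control replicate 2 (70 and 55), control replicate 3 (81), mTET2-wt replicate 2 (3 and 7), mTET2-R43G replicate 2 (3 and 3) and mTET2-R1261C replicate 2 (7 and 3).

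With the replicate number as a block, 102 genes were called in mTET2-R43G relative to control and 5 in mTET2-R1261C relative to mTET2-R43G. In mTET2-R43G relative to mTET2-wt, where same-numbered libraries deviated together, 15 were called with the block and 10 in the main fit without it. The block changed no call among the 10 genes, and fit in mTET2-R43G relative to control had an adjusted p of 0.118 under it.

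With 3 pools per group, the width of the intervals of fit, the yolk protein genes and the roX RNAs comes from the spread between pools, and counts were not the limit: the lowest count of these genes in a library was 84 read pairs (fit in mTET2-R43G replicate 2).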
